A study of Mus musculus with 24 samples.

Results

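Unstimulated bone marrow-derived macrophages of diabetic mice were compared with those of control mice across all genes measured. The comparison rests on 12 of the 24 RNA-seq libraries of the study, chosen by their titles: 6 from diabetic mice and 6 from control mice, each from a different male C57Bl/6 mouse. Diabetes had been induced with streptozotocin (STZ), which destroys the pancreatic beta cells that make insulin, and the labels give no treatment for the controls, so that no vehicle is recorded. Marrow cells of both groups were grown for 7 days in medium with 20% L929 cell supernatant, a source of macrophage growth factor, selected by adhesion, and kept at 5 mmol/L glucose throughout. The cells therefore came from diabetic animals but were cultured at the same glucose as the control cells. The other 12 libraries came from the rest of each mouse's cells after 6 h of lipopolysaccharide (LPS) plus interferon-gamma, and are used only where the stimulated state is set beside the unstimulated one. Defining macrophage genes were found in all 12 libraries: Csf1r, the receptor of the growth factor CSF1, lay at 2132 to 2412 CPM in diabetic and 2128 to 2328 CPM in control libraries. Spi1, the lineage factor PU.1, lay at 246 to 291 CPM in diabetic and 281 to 295 CPM in control libraries.

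Resting macrophages make a little interferon-beta, which acts back on the cells through the receptor IFNAR, the kinases JAK1 and TYK2 and factors that include STAT2 and IRF9. These bind the interferon-stimulated response element (ISRE) in front of antiviral genes, among them Irf7, whose product amplifies the response. NRF2 (encoded by Nfe2l2) is released from its inhibitor KEAP1 by oxidants and electrophiles and switches on genes of glutathione and NADPH supply through the antioxidant response element (ARE). SREBP2 switches on cholesterol synthesis when cell cholesterol is low.

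Levels are in CPM, reads scaled to a common library size, and differences are diabetic minus control on the scale of log2(CPM + 1), given with their standard error (SE); for genes of low level the added 1 makes a difference look smaller. A gene was called when its Benjamini-Hochberg adjusted p in a limma fit of the 12 libraries was under 0.05. The libraries held 16754771 to 28021162 reads in diabetic and 20098813 to 26572456 reads in control samples, so that 3 reads were worth at most 0.139 CPM. On the first principal component, which held 53.8% of the variance, the 6 diabetic libraries lay at 7.63 or above and the 6 control libraries between -23.2 and -5.98. Control library 3 stood apart at -23.2, the next at -10.7. The columns of the deposited table stand in 2 blocks, each with 3 mice of both phenotypes, and control library 3 is in block 2. What sets this library or these blocks apart was not tested.

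Of 11126 genes tested, 2813 were called, which is 25.3%; 1326 (11.9%) were higher and 1487 (13.4%) were lower in diabetic cells. With scaling by total reads in place of the authors' scaling the split was 1727 higher and 1124 lower. Most differences were small: the median size of a called difference was 0.246 among the genes higher and 0.201 among the genes lower. A difference of at least 1, a doubling, was reached by 16 called genes that were higher (0.144% of those tested) and 59 that were lower (0.53%). All 6 diabetic libraries lay above all 6 control libraries for 611 genes (5.49%), and below them for 840 genes (7.55%). Within column block 1, 1139 genes were higher and 1310 lower, and within column block 2, 322 higher and 287 lower. Of 127 named genes that were called, mostly picked for a large difference or a small p, 16 did not pass within block 1 alone and 65 within block 2 alone, each with 3 libraries against 3. Of all 2813 calls, 1946 were kept within block 1 alone and 588 within block 2 alone. Without control library 3, 1162 were higher and 1311 lower, and within block 2 without it, 231 higher and 313 lower. Of 383 called members of the gene lists described here, 60 lost the call when some single library was left out. In bulk RNA a smaller share of cells that express a gene and less RNA per cell cannot be told apart.

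**Figure D1:**
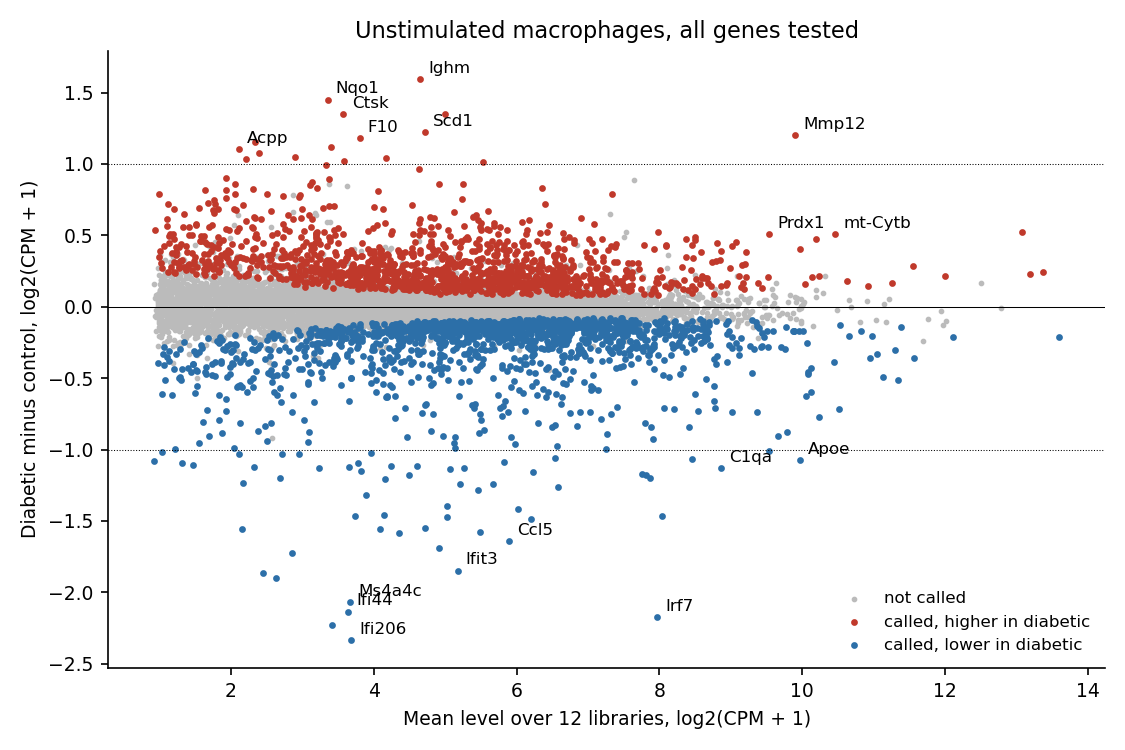
Difference between diabetic and control libraries (vertical axis, log2 scale of CPM + 1) against the mean level over the 12 unstimulated libraries (horizontal axis, log2 scale of CPM + 1), with 1 point per gene and the called genes in colour. The largest differences are falls, with Ifi206 at -2.33 and Irf7 at -2.17, while the largest rise is Ighm at 1.60.

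The antiviral genes of the type I interferon response fell as a group. All 28 listed effectors were tested and all 28 fell, against 13.4% of all genes, with a median difference of -1.13, against -0.0054 over all genes; in all 28 every diabetic library was below every control library, against 7.55% of all genes. Their summed level was 1762 to 2247 CPM in diabetic and 3246 to 5541 CPM in control libraries, control library 3 being the highest. Irf7 (ENSMUSG00000025498, chr7:141262706-141266481, minus strand), the transcription factor that amplifies the response, lay at 57.2 to 132 CPM with a median of 82.7 in diabetic libraries, against 261 to 740.3 CPM with a median of 371 in control libraries (-2.17 ± 0.26, adjusted p = 0.00018). The highest diabetic library stood below the lowest control library, and control library 3 was the highest of all. Within column block 2 Irf7 did not pass (-2.34, adjusted p = 0.079), and without control library 3 it did there (-1.88, adjusted p = 0.033). Ifit3, which binds viral RNA together with its relatives, lay at 10.1 to 17.9 CPM with a median of 14.4 in diabetic libraries, against 36.8 to 103 CPM with a median of 47.7 in control libraries (-1.85 ± 0.23, adjusted p = 0.0002). Bst2, the tether that holds budding virus on the cell, lay at 83.9 to 117 CPM with a median of 98.7 in diabetic libraries, against 163 to 275 CPM with a median of 195 in control libraries (-0.99 ± 0.11, adjusted p = 9.9e-05). Ifitm3, which blocks viral entry, lay at 348 to 418 CPM with a median of 386 in diabetic libraries, against 528 to 783 CPM with a median of 644 in control libraries (-0.74 ± 0.074, adjusted p = 1.3e-05). For these genes, too, every diabetic library was below every control library. Other effectors with large differences were Ifi44, with means of 3.4 CPM in diabetic and 19.5 CPM in control cells, the dynamin-like Mx1 (8.94 CPM in diabetic and 30.1 CPM in control cells) and Oasl1 (7.2 CPM in diabetic and 24.7 CPM in control cells). The smallest fall was that of the RNA-activated kinase gene Eif2ak2 (65.3 CPM in diabetic and 98.1 CPM in control cells, -0.58 ± 0.086, adjusted p = 0.00035). Without control library 3 all 28 fell with a median of -1.01. Within column block 1 all 28 fell, within block 2 only 5 passed, at a median of -1.24, and within block 2 without control library 3 25 passed, at a median of -0.92.

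Of 16 listed factors and sensors upstream of these effectors 13 fell and none rose, against 13.4% lower and 11.9% higher over all genes. Their median difference was -0.42. Stat2 averaged 106 CPM in diabetic and 200.0 CPM in control libraries (-0.89 ± 0.11, adjusted p = 0.00016). Irf9 averaged 59.5 CPM in diabetic and 82.6 CPM in control cells. Both encode parts of the complex that binds the ISRE. The sensor gene Zbp1 fell (11.9 CPM in diabetic and 38.5 CPM in control cells, -1.55 ± 0.19, adjusted p = 0.0002). The RNA sensor genes Dhx58 (-0.96), Ddx58 (-0.84) and Ifih1 (-0.69) fell as well. The interferon receptor chain Ifnar2 fell slightly (-0.21 ± 0.03, adjusted p = 7.3e-05). Of the other chain, Ifnar1, the difference was -0.063 ± 0.033, adjusted p = 0.17, and of the cytosolic DNA sensor Mb21d1 (cGAS) and the factor Irf3 it was -0.14 and -0.07; none of these passed the test.

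The sequences in front of the start of these genes were searched for the core of the ISRE, 2 copies of GAAA with any 2 bases between them, on both strands, in the 300 bases from 250 before to 50 after the start (RefSeq, GRCm38.p6; 8685 of the 11126 tested genes matched). The core stood in 4.03% of all promoters, in 9.2% of those of genes called lower, in 2.41% of those of genes called higher, and in 16 of 42 promoters of genes called lower by at least 1. It stood in 12 of the 21 effector genes with a promoter in the table. A match describes the letters only. The windows of Irf7, Ifi44, Irf9, Slfn1 and Psmb8 hold no match, which says only that these letters are not in them. Ifit3, Ifi206 and Bst2 are shown as effector or family genes with a match, each on the strand of its gene; capitals mark the matches, and those on the opposite strand stand as their complement. Ifit3 (chr19:34583279-34583578, plus strand) has 2, the first at position -156 from the start, Ifi206 (chr1:173491269-173491568, minus strand) has 1 at -40, and Bst2 (chr8:71537423-71537722, minus strand) has 2 that overlap, the first at -130. Positions count from the RefSeq start. For Ifi206 that start differs from the start of the gene span given below, and the whole window lies upstream of that span.
Ifit3: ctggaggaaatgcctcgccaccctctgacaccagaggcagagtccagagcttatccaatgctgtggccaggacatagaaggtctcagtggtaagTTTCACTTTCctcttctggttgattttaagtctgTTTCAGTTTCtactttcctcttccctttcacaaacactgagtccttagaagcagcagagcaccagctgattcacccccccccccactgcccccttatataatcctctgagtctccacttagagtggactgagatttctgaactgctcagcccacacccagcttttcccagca
Ifi206: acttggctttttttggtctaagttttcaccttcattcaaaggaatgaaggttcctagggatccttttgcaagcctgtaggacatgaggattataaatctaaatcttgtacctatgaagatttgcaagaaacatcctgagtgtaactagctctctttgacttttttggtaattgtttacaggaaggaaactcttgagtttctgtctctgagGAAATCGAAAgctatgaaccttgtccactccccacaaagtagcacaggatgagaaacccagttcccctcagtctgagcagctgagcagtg
Bst2: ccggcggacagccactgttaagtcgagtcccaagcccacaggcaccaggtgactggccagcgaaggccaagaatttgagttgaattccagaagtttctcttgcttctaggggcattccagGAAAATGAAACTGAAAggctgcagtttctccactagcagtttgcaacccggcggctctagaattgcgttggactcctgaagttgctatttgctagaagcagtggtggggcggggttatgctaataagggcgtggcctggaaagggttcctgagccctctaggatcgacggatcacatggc

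Several of the largest falls were neighbours in the genome. The Ifi200 family encodes DNA-binding PYHIN proteins in a cluster on chromosome 1, and 10 of its 11 tested genes fell, with a median of -1.26. Over all genes 13.4% were lower. This family and those that follow were singled out after their values were seen, so that the choice favours high counts of falls. Ifi206 (ENSMUSG00000037849, chr1:173468485-173491041, minus strand) lay at 1.99 to 4.85 CPM with a median of 3.02 in diabetic libraries, against 11 to 41.5 CPM with a median of 17.6 in control libraries (-2.33 ± 0.27, adjusted p = 0.00014), the largest difference of all called genes. Ifi213 lay at 1.64 to 4.25 CPM with a median of 2.38 in diabetic libraries, against 9.31 to 33.4 CPM with a median of 14.2 in control libraries. Ifi208, nearby in the cluster, lay at 1.11 to 1.71 CPM with a median of 1.43 in diabetic libraries, against 4.29 to 21 CPM with a median of 6.9 in control libraries. At the edge of the cluster, Aim2, the inflammasome sensor of DNA, had 32.5 CPM in diabetic and 34.6 CPM in control libraries (-0.087 ± 0.047, adjusted p = 0.2) and did not pass. All 7 tested Schlafen (Slfn) genes on chromosome 11 fell, with a median of -0.73, from Slfn1 (-1.86 ± 0.31, adjusted p = 0.0013) to Slfn9 (-0.26 ± 0.078, adjusted p = 0.028). On chromosome 19, 6 of 7 tested Ms4a genes fell. Among them Ms4a4c lay at 2.69 to 4.09 CPM with a median of 3.41 in diabetic libraries, against 9.59 to 51.2 CPM with a median of 15.4 in control libraries, and Ms4a7 averaged 332 CPM in diabetic and 545 CPM in control libraries. The 5 tested Ifit genes and the 8 tested Oas genes fell too, with medians of -1.48 and -1.01. Some of them, such as Ifit3 and Oasl1, are among the antiviral effectors already counted above. Members of these families resemble each other closely, Ifit3 and Ifit3b most of all, and the annotated spans of Mndal and Ifi203 overlap, so that the authors' counting may have divided or lost some of their reads.

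**Figure D2:**
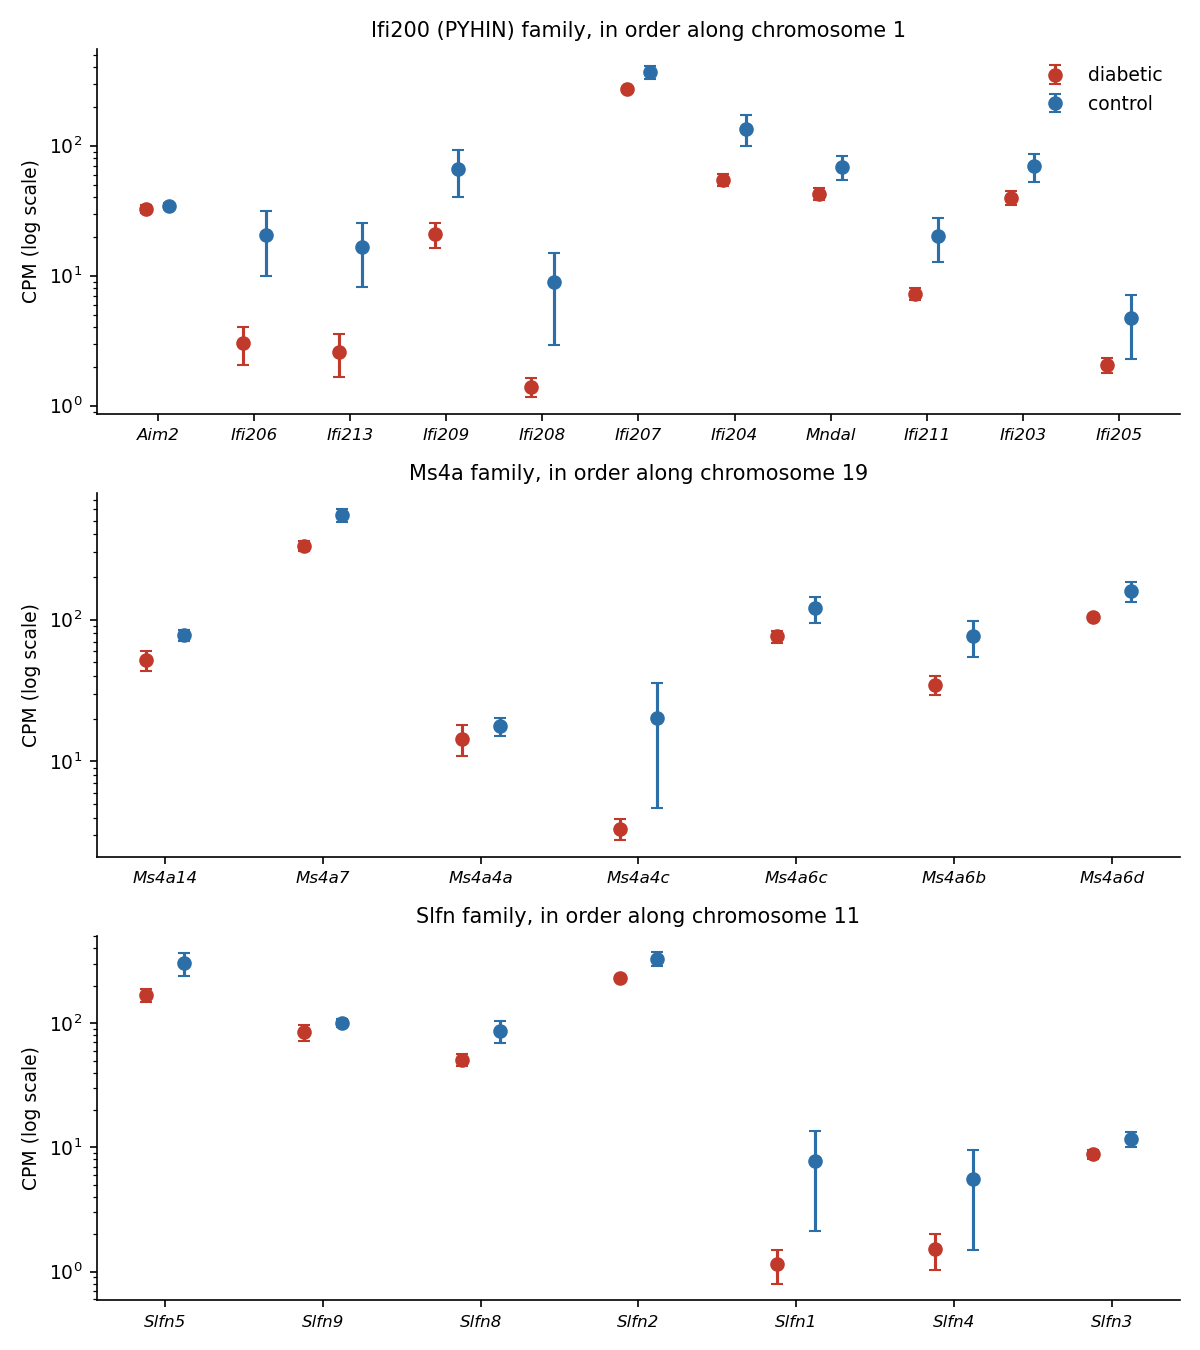
Mean level with SD over 6 libraries (vertical axis, CPM on a log scale) for the genes of 3 families in their order along the chromosome (horizontal axis), diabetic left of control. The diabetic mean is the lower of the pair for each gene drawn, and Aim2 and Ms4a4a are the genes that did not pass the test.

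Genes of antigen presentation on MHC class I fell together with the antiviral genes. All 14 listed fell, against 13.4% lower and 11.9% higher over all genes, with a median of -0.33. The heavy chain gene H2-K1 averaged 899 CPM in diabetic and 1255 CPM in control libraries (-0.47 ± 0.066, adjusted p = 9.8e-05). B2m, the light chain, averaged 1858 CPM in diabetic and 2635 CPM in control cells, and the peptide transporter Tap1 67.5 CPM in diabetic and 104 CPM in control cells. Psmb8, a subunit of the immunoproteasome, lay at 99.6 to 108 CPM with a median of 102 in diabetic libraries, against 119 to 141 CPM with a median of 126 in control libraries (-0.29 ± 0.038, adjusted p = 3.8e-05). All 12 tested guanylate-binding and immunity-related GTPases, which attack the vacuoles of intracellular microbes, fell as well, with a median of -0.68 and 3 more below the minimum level. Of these Irgm1 averaged 65.1 CPM in diabetic and 118 CPM in control libraries (-0.83 ± 0.11, adjusted p = 0.00018). Gbp9 lay at 27.7 to 36.7 CPM with a median of 32.2 in diabetic libraries, against 47.8 to 74.5 CPM with a median of 52 in control libraries. Tgtp2 (-1.11 ± 0.14, adjusted p = 5.0e-05) was at or under 1.02 CPM in diabetic cells and has a near-identical copy, Tgtp1, so that its value is uncertain. The ISRE core stood in all 8 of the promoters found for these GTPases. Of 9 MHC class II genes none fell and 2 rose, Ciita and Ifi30. Ciita is the master regulator of the class (11.1 CPM in diabetic and 6.52 CPM in control cells, 0.69 ± 0.19, adjusted p = 0.02), and Ifi30 encodes a thiol reductase of the endosome (0.21). The groups of both overlapped. Both calls were lost within column block 1, and that of Ciita within block 2 as well. The class II chain genes H2-Aa, H2-Ab1 and H2-Eb1 had differences of 0.18, 0.19 and 0.19, which did not pass.

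Of 12 tested complement genes 8 fell and none rose, against 13.4% lower and 11.9% higher over all genes. C1qa (ENSMUSG00000036887, chr4:136895917-136898803, minus strand), 1 of the 3 chains of C1q, lay at 251 to 328 CPM with a median of 288 in diabetic libraries, against 573 to 758 CPM with a median of 624 in control libraries (-1.13 ± 0.07, adjusted p = 2.2e-07). Its neighbour C1qb averaged 1100 CPM in diabetic and 1810 CPM in control cells, and C1qc 888 CPM in diabetic and 1518 CPM in control cells. Each chain of C1q was lower in every diabetic than in every control library. Properdin (Cfp, 285 CPM in diabetic and 435 CPM in control cells), the central component C3 (117 CPM in diabetic and 200.0 CPM in control cells) and the receptors C3ar1 (-0.39) and C5ar1 (-0.30) fell too.

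Of 18 tested Fc receptors and adaptors of the ITAM type 7 fell and 2 rose, against 13.4% lower and 11.9% higher over all genes. Their median difference was -0.029. Fcgr1, the high-affinity IgG receptor and itself an interferon target, lay at 120.5 to 142 CPM with a median of 129 in diabetic libraries, against 231 to 419 CPM with a median of 289.8 in control libraries (-1.17 ± 0.12, adjusted p = 5.0e-05). Fcgr4, another activating receptor, averaged 23.2 CPM in diabetic and 45.1 CPM in control cells. Fcgr2b, the inhibitory receptor, and Fcgr3 had differences of 0.14 and 0.05 that did not pass. Clec4e (Mincle), a receptor of mycobacterial glycolipids, was one of the 2 that rose, at 43.2 to 49.1 CPM with a median of 45 in diabetic libraries, against 29.3 to 34.6 CPM with a median of 32.2 in control libraries (0.49 ± 0.042, adjusted p = 1.1e-06). Of 22 Toll-like receptors, co-receptors and adaptors 9 fell and 2 rose. Tlr9, the receptor of unmethylated DNA, averaged 42.8 CPM in diabetic and 72.4 CPM in control cells (-0.73 ± 0.11, adjusted p = 0.00052). The LPS co-receptor Cd14 averaged 489 CPM in diabetic and 618 CPM in control cells and the adaptor Myd88 71.9 CPM in diabetic and 88.2 CPM in control cells. Tlr2, the receptor of lipopeptides, was one of those that rose (0.25), and Tlr4 itself did not pass (-0.12 ± 0.075, adjusted p = 0.27).

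Of 10 tested chemoattractant receptors 5 fell and none rose. Ccr3 lay at 18.3 to 23.3 CPM with a median of 21 in diabetic libraries, against 45.5 to 68 CPM with a median of 46.3 in control libraries (-1.24 ± 0.10, adjusted p = 8.3e-06), and its groups did not overlap. Of the ligands, 3 of 7 CC chemokines fell, and all 3 attract monocytes or T cells. Ccl5 lay at 21.9 to 32.7 CPM with a median of 26.4 in diabetic libraries, against 56.2 to 172 CPM with a median of 78.7 in control libraries (-1.64 ± 0.24, adjusted p = 0.00063). Ccl4 averaged 30.4 CPM in diabetic and 56.4 CPM in control cells and Ccl7 14.7 CPM in diabetic and 32.2 CPM in control cells. Within column block 2 Ccl5 did not pass (adjusted p = 0.13), but it did there without control library 3 (adjusted p = 0.0035). Among cytokines 4 of 20 fell and 1 rose, near the 13.4% lower and 11.9% higher over all genes. Il10, an anti-inflammatory cytokine, lay at 1.97 to 3.28 CPM with a median of 2.5 in diabetic libraries, against 3.5 to 5.19 CPM with a median of 4.06 in control libraries (-0.55 ± 0.095, adjusted p = 0.00038). Vegfa, the growth factor of vessels, was the one that rose (54.9 CPM in diabetic and 41.6 CPM in control cells, 0.42). Its call was lost when any 1 of the 6 diabetic libraries or control library 4 or 6 was left out, with differences of 0.31 or more and adjusted p of at most 0.093. Of 30 NF-kB, AP-1 and EGR factors and their inhibitors 11 fell and 3 rose. Nfkbiz, a nuclear IkB protein, lay at 17.6 to 21 CPM with a median of 19.1 in diabetic libraries, against 29.3 to 37 CPM with a median of 30.9 in control libraries (-0.69 ± 0.053, adjusted p = 3.7e-07). Fos, Jun, Zfp36 and Dusp1 also fell. Egr2, a zinc finger factor of macrophage differentiation, rose (59.7 CPM in diabetic and 30.9 CPM in control cells, 1.01 ± 0.28, adjusted p = 0.025), though not without diabetic library 4 (adjusted p = 0.055).

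Genes of macrophage identity split. Of 24, 10 fell and 5 rose, against 13.4% lower and 11.9% higher over all genes. Adgre1, which encodes F4/80, lay at 1683 to 1788 CPM with a median of 1739 in diabetic libraries, against 2126 to 2450 CPM with a median of 2189 in control libraries (-0.36 ± 0.039, adjusted p = 8.8e-06), lower in every diabetic than in every control library. The lineage factors Maf (-0.36) and Spi1 (-0.15) fell slightly. Gpnmb, a glycoprotein of lysosomes and lipid-laden macrophages, rose by 0.52. Csf1r did not pass (0.022 ± 0.039, adjusted p = 0.73), though it was called higher under quantile normalization (adjusted p = 0.014). Of 28 lysosomal enzymes and factors 10 fell and 2 rose. Ctsc, the protease that activates granule proteases, lay at 122 to 141 CPM with a median of 126 in diabetic libraries, against 188 to 248 CPM with a median of 206 in control libraries (-0.70 ± 0.059, adjusted p = 1.9e-06), and the asparaginyl protease gene Lgmn averaged 911 CPM in diabetic and 1255 CPM in control cells. Ctsk, the collagenolytic protease of osteoclasts, rose, at 10.2 to 25.3 CPM with a median of 14.8 in diabetic libraries, against 3.36 to 7.53 CPM with a median of 5.42 in control libraries (1.35 ± 0.22, adjusted p = 0.00098). Of the genes of alternative activation 3 rose and 3 fell of 8 tested. The mannose receptor gene Mrc1 (354 CPM in diabetic and 510.3 CPM in control cells) and Folr2 (331 CPM in diabetic and 472 CPM in control cells) fell and Klf4 rose (20.5 CPM in diabetic and 13.3 CPM in control cells). Of 14 genes for the uptake of dying cells 3 fell (21.4%, against 13.4% of all genes) and none rose. Axl and its ligand Gas6, which bridge to such cells, fell (-0.98 ± 0.16, adjusted p = 0.0013 for Axl and -0.47 ± 0.10, adjusted p = 0.0044 for Gas6).

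**Figure D3:**
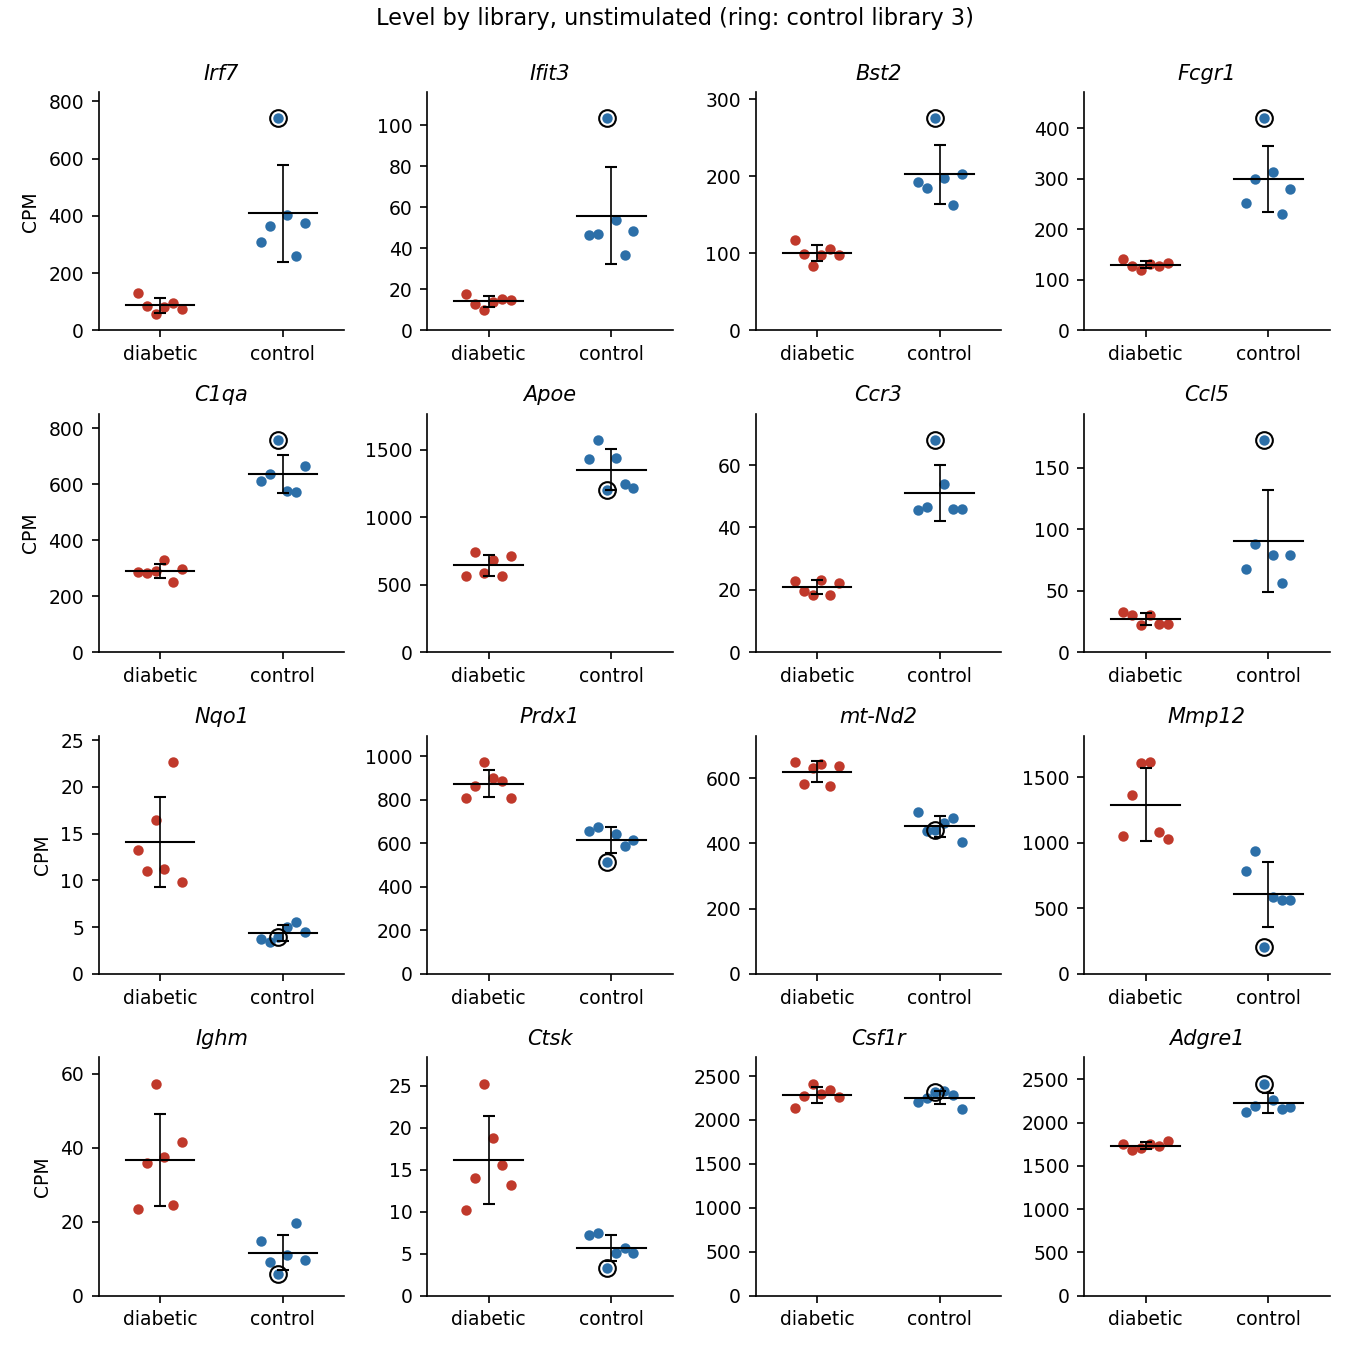
Level in each library (vertical axis, CPM, from 0) for 16 genes, with 6 diabetic libraries at the left and 6 control libraries at the right of each panel; the lines are means, the bars SD, and the ring marks control library 3. Irf7, Ifit3, Bst2, Fcgr1, C1qa, Apoe, Ccr3 and Ccl5 are lower in every diabetic library, Nqo1, Prdx1, mt-Nd2, Mmp12, Ighm and Ctsk are higher, Adgre1 is lower, and the groups overlap for Csf1r.

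Genes of the antioxidant response rose. Of 22 tested NRF2 regulators and targets 17 rose and none fell, against 11.9% of all genes higher, with a median of 0.40; without control library 3, 17 rose, and within column blocks 1 and 2, 16 and 11. Nqo1, the quinone reductase, lay at 9.88 to 22.7 CPM with a median of 12.2 in diabetic libraries, against 3.38 to 5.57 CPM with a median of 4.25 in control libraries (1.45 ± 0.18, adjusted p = 0.00015). The highest control library was below the lowest diabetic one. Within column block 2 without control library 3 Nqo1 did not pass (adjusted p = 0.09). Prdx1, which reduces hydrogen peroxide, lay at 806 to 973 CPM with a median of 875 in diabetic libraries, against 513 to 673 CPM with a median of 628 in control libraries (0.51 ± 0.062, adjusted p = 3.3e-05). Catalase (Cat) averaged 384 CPM in diabetic and 276 CPM in control cells. Both subunits of the enzyme that starts glutathione synthesis rose, Gclm (105 CPM in diabetic and 57 CPM in control cells) and Gclc (59.5 CPM in diabetic and 44.7 CPM in control cells). Slc7a11, which imports cystine for it (4.54 CPM in diabetic and 2.42 CPM in control cells), rose as well. So did Txnrd1, which reduces thioredoxin (311 CPM in diabetic and 230.3 CPM in control cells), and Srxn1, which repairs peroxiredoxins (182 CPM in diabetic and 135 CPM in control cells). Pgd and Tkt of the pentose phosphate pathway, which supplies NADPH, rose as well (0.39 and 0.14). Nfe2l2 itself rose slightly (0.17 ± 0.05, adjusted p = 0.022), though not without diabetic library 6 (adjusted p = 0.050). Keap1 (-0.071) and G6pdx (0.086) did not pass. Hmox1, the heme oxygenase, did not pass either, at 487 to 808 CPM with a median of 646 in diabetic libraries, against 472 to 573 CPM with a median of 513 in control libraries (0.30 ± 0.12, adjusted p = 0.084). Hmox1 was called higher without diabetic library 4 (0.35, adjusted p = 0.045) or 6 (0.37, adjusted p = 0.017) and under quantile normalization (0.35, adjusted p = 0.046). The ARE core, TGACNNNGC, searched on both strands, stood in 10 of the 18 promoters found for the list, against 17.21% of all promoters. Prdx1 (chr4:116685349-116685648, plus strand) is shown as an example with its only match, at position -133 and on the opposite strand, in capitals. The windows of Nqo1 and Cat hold no match.
Prdx1: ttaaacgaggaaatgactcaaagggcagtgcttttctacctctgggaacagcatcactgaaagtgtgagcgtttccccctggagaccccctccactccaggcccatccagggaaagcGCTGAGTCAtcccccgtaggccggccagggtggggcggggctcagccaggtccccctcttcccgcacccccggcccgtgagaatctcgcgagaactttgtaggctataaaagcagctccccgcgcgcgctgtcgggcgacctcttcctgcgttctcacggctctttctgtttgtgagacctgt

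Of 21 tested genes of cholesterol synthesis and uptake 13 rose and none fell, against 11.9% higher and 13.4% lower over all genes. Their median difference was 0.26. Hmgcs1, an early enzyme of the pathway, averaged 141 CPM in diabetic and 108 CPM in control cells (0.38 ± 0.088, adjusted p = 0.0069). Srebf2, which encodes the factor SREBP2, did not pass (0.051 ± 0.033, adjusted p = 0.29). Within column block 1, 14 of the 21 rose, and within column block 2 it was 1. The genes of cholesterol export by LXR split, with 4 higher and 4 lower of 15. Apoe, the lipid carrier that macrophages secrete, lay at 561 to 746 CPM with a median of 637 in diabetic libraries, against 1202 to 1571 CPM with a median of 1337 in control libraries (-1.07 ± 0.088, adjusted p = 4.5e-06). The highest diabetic library stood below the lowest control library. Npc2, which carries cholesterol out of lysosomes, fell too (-0.43). Scd1, the desaturase that makes oleate, rose, at 14.7 to 47.4 CPM with a median of 39.8 in diabetic libraries, against 6.52 to 23 CPM with a median of 14.6 in control libraries (1.22 ± 0.35, adjusted p = 0.026). It did not pass without diabetic library 2, 3, 4 or 6 or control library 6, with differences of 1.13 to 1.21 and adjusted p of 0.051 to 0.057. The call of Scd1 was also lost within column block 1 (1.31, adjusted p = 0.053) and within block 2 (1.14, adjusted p = 0.43). Pparg, the nuclear receptor of fatty acid storage, fell, at 39 to 45 CPM with a median of 43.5 in diabetic libraries, against 50.6 to 59.1 CPM with a median of 52.8 in control libraries (-0.30 ± 0.042, adjusted p = 6.6e-05). The lipid droplet coat gene Plin2 fell as well (749.8 CPM in diabetic and 914 CPM in control cells). The fatty acid receptor gene Cd36 did not pass (0.21 ± 0.093, adjusted p = 0.11). It did under quantile normalization, with the replicate number as a block, and without control library 2 (0.28, adjusted p = 0.013).

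Of 26 genes of glucose uptake and glycolysis 11 rose and none fell, against 11.9% higher and 13.4% lower over all genes. Without control library 3 only 6 rose. Within either column block it was 6. Slc2a1, the glucose transporter GLUT1, lay at 70.8 to 95.9 CPM with a median of 79.6 in diabetic libraries, against 47.8 to 62.1 CPM with a median of 57.5 in control libraries (0.51 ± 0.074, adjusted p = 0.00021), with no overlap between the groups and control library 3 lowest. The transporter Slc2a6 averaged 52.6 CPM in diabetic and 35.8 CPM in control cells and the lactate exporter Slc16a3 81 CPM in diabetic and 59.3 CPM in control cells. Pgam1 (0.39), of glycolysis, rose too, but this gene, like others of the pathway, has near-identical copies elsewhere, so that its value is uncertain. Gapdh, usually among the most abundant mRNAs, was listed at only 6.67 CPM in diabetic and 5.81 CPM in control cells. The hexokinases Hk1, Hk2 and Hk3 had differences of 0.035, 0.088 and 0.087, which did not pass. Of 22 hypoxia genes 11 rose and none fell, among them Egln3, an oxygen-sensing hydroxylase (3.81 CPM in diabetic and 1.81 CPM in control cells), and Ankrd37 (0.62). Ak4, a mitochondrial adenylate kinase, lay at 2.44 to 3.76 CPM with a median of 2.86 in diabetic libraries, against 0.855 to 1.72 CPM with a median of 1.46 in control libraries (0.73 ± 0.10, adjusted p = 7.1e-05). Within block 2, 4 of the 22 rose.

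Of the 13 protein-coding genes of the mitochondrial genome 7 were tested, and 6 rose, with a median of 0.45. mt-Nd2, a subunit of complex I, lay at 576 to 649 CPM with a median of 635 in diabetic libraries, against 404 to 496 CPM with a median of 451 in control libraries (0.45 ± 0.048, adjusted p = 7.2e-06). The gene mt-Cytb, of complex III, averaged 1651 CPM in diabetic and 1164 CPM in control cells. In each of the 6 every diabetic library was above every control library, against 5.49% of all genes. Of the 2 ribosomal RNA genes of the mitochondrial genome, mt-Rnr1 fell (107 CPM in diabetic and 159.7 CPM in control cells, -0.57 ± 0.11, adjusted p = 0.0029) and mt-Rnr2 did not pass (0.18 ± 0.11, adjusted p = 0.26). The 11 mitochondrial genes with a row took up 1.10% to 1.20% of all reads of a diabetic library and 0.786% to 0.944% of those of a control library. Nuclear copies of the mitochondrial genome could take some of their reads. Of 27 nuclear-encoded subunits of the same respiratory chain none rose and 1 fell, Sdhb (-0.16 ± 0.032, adjusted p = 0.0015), with a median of -0.0008.

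Of 16 tested clock genes 10 rose and 1 fell. Bhlhe40, a repressor of the clock and an activator of inflammation, rose (47.4 CPM in diabetic and 26.9 CPM in control cells, 0.86 ± 0.24, adjusted p = 0.026), though not without diabetic library 2, 4 or 6 (adjusted p of at most 0.055). Dbp, an output factor (9.91 CPM in diabetic and 6.62 CPM in control cells), and the repressors Per2 (0.45) and Per3 (0.43) rose. Npas2, a partner of Arntl, lay at 4.53 to 5.58 CPM with a median of 4.94 in diabetic libraries, against 2.95 to 4.07 CPM with a median of 2.98 in control libraries (0.51 ± 0.074, adjusted p = 9.6e-05). Per1 fell (-0.15), and Clock (0.061) and Arntl (0.035) did not pass. The labels do not give the time of day of lysis. Within block 2, 2 rose. Of 20 genes of insulin signalling and FOXO targets 5 rose and 1 fell, against 11.9% higher and 13.4% lower over all genes, and within block 2, 2 rose and none fell. Arrdc4 and Txnip, paired arrestin-like genes that respond to glucose and restrain its uptake, were among those that rose. Arrdc4 lay at 10.4 to 15.7 CPM with a median of 12.1 in diabetic libraries, against 5.07 to 8.49 CPM with a median of 7.6 in control libraries (0.71 ± 0.11, adjusted p = 0.00035), with no overlap. Txnip lay at 436 to 564 CPM with a median of 482 in diabetic libraries, against 341 to 437 CPM with a median of 393 in control libraries (0.32 ± 0.066, adjusted p = 0.0021), and its groups overlapped. Insr (0.058) did not pass.

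Of 20 lipid mediator genes 10 rose and 3 fell, against 11.9% higher and 13.4% lower over all genes. Alox5, the enzyme that starts leukotriene synthesis, lay at 10.4 to 17.2 CPM with a median of 11.6 in diabetic libraries, against 4.31 to 6.93 CPM with a median of 5.78 in control libraries (0.99 ± 0.11, adjusted p = 3.4e-05). Lta4h, which makes leukotriene B4, averaged 63 CPM in diabetic and 53.1 CPM in control cells. Ptgs1 (COX-1) rose (27.9 CPM in diabetic and 16.7 CPM in control cells), and Ptgs2 (COX-2) did not pass (-0.22 ± 0.19, adjusted p = 0.43). The prostacyclin receptor Ptgir lay at 21.1 to 23.2 CPM with a median of 22.1 in diabetic libraries, against 15.7 to 17.9 CPM with a median of 16.6 in control libraries (0.38 ± 0.041, adjusted p = 8.1e-06).

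Of 26 tested genes of the matrix and its proteases 7 rose and 4 fell, against 11.9% higher and 13.4% lower over all genes. Within column block 1, 4 rose and 7 fell, and within column block 2, 2 rose and 2 fell. Mmp12, the macrophage elastase, lay at 1029 to 1616 CPM with a median of 1222 in diabetic libraries, against 202 to 936 CPM with a median of 576 in control libraries (1.20 ± 0.33, adjusted p = 0.023). The call was lost without diabetic library 4 (1.13, adjusted p = 0.051) and within either column block. Mmp8, the neutrophil collagenase, rose, at 33.5 to 43 CPM with a median of 38.1 in diabetic libraries, against 14.2 to 23.1 CPM with a median of 21.8 in control libraries (0.86 ± 0.11, adjusted p = 0.00014). It lies in the same stretch of chromosome 9 as Mmp12. Mmp13 and Mmp27, also in that stretch, did not pass (-0.090 ± 0.094, adjusted p = 0.54 for Mmp13 and -0.20 ± 0.076, adjusted p = 0.062 for Mmp27). Mmp14, which activates other proteases at the membrane, and Adam8 fell (-0.53 ± 0.083, adjusted p = 0.00023 for Mmp14 and -0.52 ± 0.062, adjusted p = 2.2e-05 for Adam8). The adjacent clotting factor genes F7 and F10 on chromosome 8 both rose. F7 lay at 8.4 to 16.1 CPM with a median of 13.6 in diabetic libraries, against 2.25 to 8.05 CPM with a median of 6.03 in control libraries (1.12 ± 0.25, adjusted p = 0.0075). The call of F7 was lost within column block 2 (1.28, adjusted p = 0.22) and there without control library 3 (0.87, adjusted p = 0.30). F10 lay at 11.2 to 25.7 CPM with a median of 18.4 in diabetic libraries, against 2.25 to 13.1 CPM with a median of 7.62 in control libraries (1.18 ± 0.34, adjusted p = 0.027), and its groups overlapped. It did not pass without diabetic library 2, 3, 4 or 6 or control library 6, with adjusted p of 0.052 to 0.060. The call of F10 was also lost within column block 1 (0.79, adjusted p = 0.21) and within block 2 (1.57, adjusted p = 0.23). F3, tissue factor, which starts clotting, averaged only 1.70 CPM in diabetic and 0.66 CPM in control libraries and rose (0.72 ± 0.13, adjusted p = 0.00062).

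Of 34 genes of DNA replication and mitosis 16 rose and 8 fell, against 11.9% higher and 13.4% lower over all genes. Ccna2, the cyclin of S phase and mitosis, lay at 121 to 135 CPM with a median of 127 in diabetic libraries, against 83.4 to 103 CPM with a median of 93.5 in control libraries (0.45 ± 0.043, adjusted p = 3.2e-06). The mitotic genes Ccnb2 (60.5 CPM in diabetic and 40.5 CPM in control cells), Cdc20 (34.6 CPM in diabetic and 23 CPM in control cells) and Plk1 (48.8 CPM in diabetic and 35.5 CPM in control cells) and the proliferation antigen Mki67 (515 CPM in diabetic and 379.7 CPM in control cells) rose as well. The 8 that fell were the cyclins and kinase of entry into the cycle Ccnd1, Ccnd2, Ccnd3 and Cdk6, the factor E2f1 and the replication licensing genes Mcm2, Mcm5 and Mcm6. Ccnd1 lay at 301 to 372 CPM with a median of 337 in diabetic libraries, against 466 to 595 CPM with a median of 521 in control libraries (-0.66 ± 0.057, adjusted p = 1.6e-06). Ccnd2 averaged 8.38 CPM in diabetic and 25.1 CPM in control cells (-1.46 ± 0.15, adjusted p = 4.4e-05). Mcm2, Mcm5 and Mcm6 differed by -0.29, -0.15 and -0.22. Pcna did not pass (-0.019).

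Further genes stood out by size or by p. Itga9, the integrin alpha 9 chain, lay at 7.81 to 10.1 CPM with a median of 9.85 in diabetic libraries, against 18.7 to 20.7 CPM with a median of 19.9 in control libraries (-1.03 ± 0.061, adjusted p = 2.3e-08). Its list of 24 integrins and adhesion molecules was mixed, with 6 higher, among them Itga4 (0.31 ± 0.035, adjusted p = 1.2e-05), and 4 lower. Over all genes 11.9% were higher and 13.4% lower. Of 10 scavenger receptors 4 fell and 1 rose. Cd5l, a secreted scavenger-type protein that keeps macrophages alive, lay at 170.3 to 291 CPM with a median of 224 in diabetic libraries, against 361 to 729 CPM with a median of 445 in control libraries (-1.07 ± 0.17, adjusted p = 0.0012). Ly6a, which encodes the surface antigen Sca-1, was among the 12 largest falls, at 6.02 to 25.5 CPM with a median of 10.2 in diabetic libraries, against 22 to 131 CPM with a median of 31.7 in control libraries (-1.69 ± 0.46, adjusted p = 0.021). Control library 3 was far above the others and the groups overlapped. Among the 12 largest rises was Slc6a12, a transporter of betaine and GABA, at 4.5 to 6.87 CPM with a median of 6.19 in diabetic libraries, against 0.918 to 3.31 CPM with a median of 1.95 in control libraries (1.15 ± 0.18, adjusted p = 0.00039). Another was Acpp, an acid phosphatase, at 3.1 to 5.98 CPM with a median of 5.44 in diabetic libraries, against 1.32 to 2.07 CPM with a median of 1.72 in control libraries (1.11 ± 0.13, adjusted p = 2.0e-05). Mamdc2, which encodes a secreted MAM domain protein, lay at 30.6 to 60.8 CPM with a median of 40.9 in diabetic libraries, against 6.55 to 28 CPM with a median of 16.5 in control libraries (1.35 ± 0.31, adjusted p = 0.0099). Its call was lost within column block 1 (0.95, adjusted p = 0.12), within block 2 (1.75, adjusted p = 0.16) and within block 2 without control library 3 (1.26, adjusted p = 0.17). Mcf2l, a guanine nucleotide exchange factor, averaged 6.12 CPM in diabetic and 2.43 CPM in control cells (1.08 ± 0.21, adjusted p = 0.0028) and Galnt9, a glycosyltransferase, 8.87 CPM in diabetic and 3.98 CPM in control cells (1.05 ± 0.23, adjusted p = 0.006). In all 5 of these rises the groups did not overlap.

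Further lists are given by their counts, against 11.9% higher and 13.4% lower over all genes. Of 23 genes of fatty acid synthesis, storage and oxidation 7 rose and 2 fell, of 20 aminoacyl-tRNA synthetases 1 rose and 6 fell, and of 18 cytokine signalling kinases, STAT factors and SOCS inhibitors none rose and 5 fell. Of 18 genes of iron and heme 4 rose and 4 fell, and of 11 glucocorticoid targets, the receptor included, 2 rose and 3 fell. Of 25 genes of ribosome biogenesis none rose and 5 fell, and of 22 cytokine receptors 4 rose and 5 fell. Of 21 chaperones and genes of the unfolded protein response 1 fell, of 29 ribosomal proteins 3 fell, of 19 genes of the TCA cycle 2 rose, of 38 histone-modifying enzymes 2 rose and 4 fell, and of 14 enzymes of DNA methylation 1 rose and 1 fell. Setd7, a lysine methyltransferase, was the one with the smallest p among the histone-modifying enzymes, at 62.1 to 67.9 CPM with a median of 65.3 in diabetic libraries, against 51.1 to 58.4 CPM with a median of 55.4 in control libraries (0.24 ± 0.036, adjusted p = 0.00012). Of 12 alarmins and S100 genes 6 rose, but only 3 without control library 3. Of inflammatory genes looked at by name, Tnf did not pass, at 31.7 to 38.5 CPM with a median of 35.2 in diabetic libraries, against 34 to 41.1 CPM with a median of 39.8 in control libraries (-0.13 ± 0.053, adjusted p = 0.073). It was called lower without control library 3 (-0.17, adjusted p = 0.017), without diabetic library 6 (-0.16, adjusted p = 0.038), within column block 1 (-0.22, adjusted p = 0.016) and with array weights (-0.15, adjusted p = 0.020). Nos2, the inducible nitric oxide synthase, did not pass either, at 12.5 to 17.6 CPM with a median of 14.6 in diabetic libraries, against 12.8 to 29.6 CPM with a median of 15 in control libraries (-0.28 ± 0.22, adjusted p = 0.41). Il1b fell (-0.47 ± 0.10, adjusted p = 0.0027), at 3.47 to 4.78 CPM in diabetic and 4.54 to 7.435 CPM in control libraries, and its groups overlapped. Its call was lost within column block 2 (-0.39, adjusted p = 0.15) and there without control library 3 (-0.23, adjusted p = 0.37). Il6 and Arg1 were below the minimum level.

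**Figure D4:**
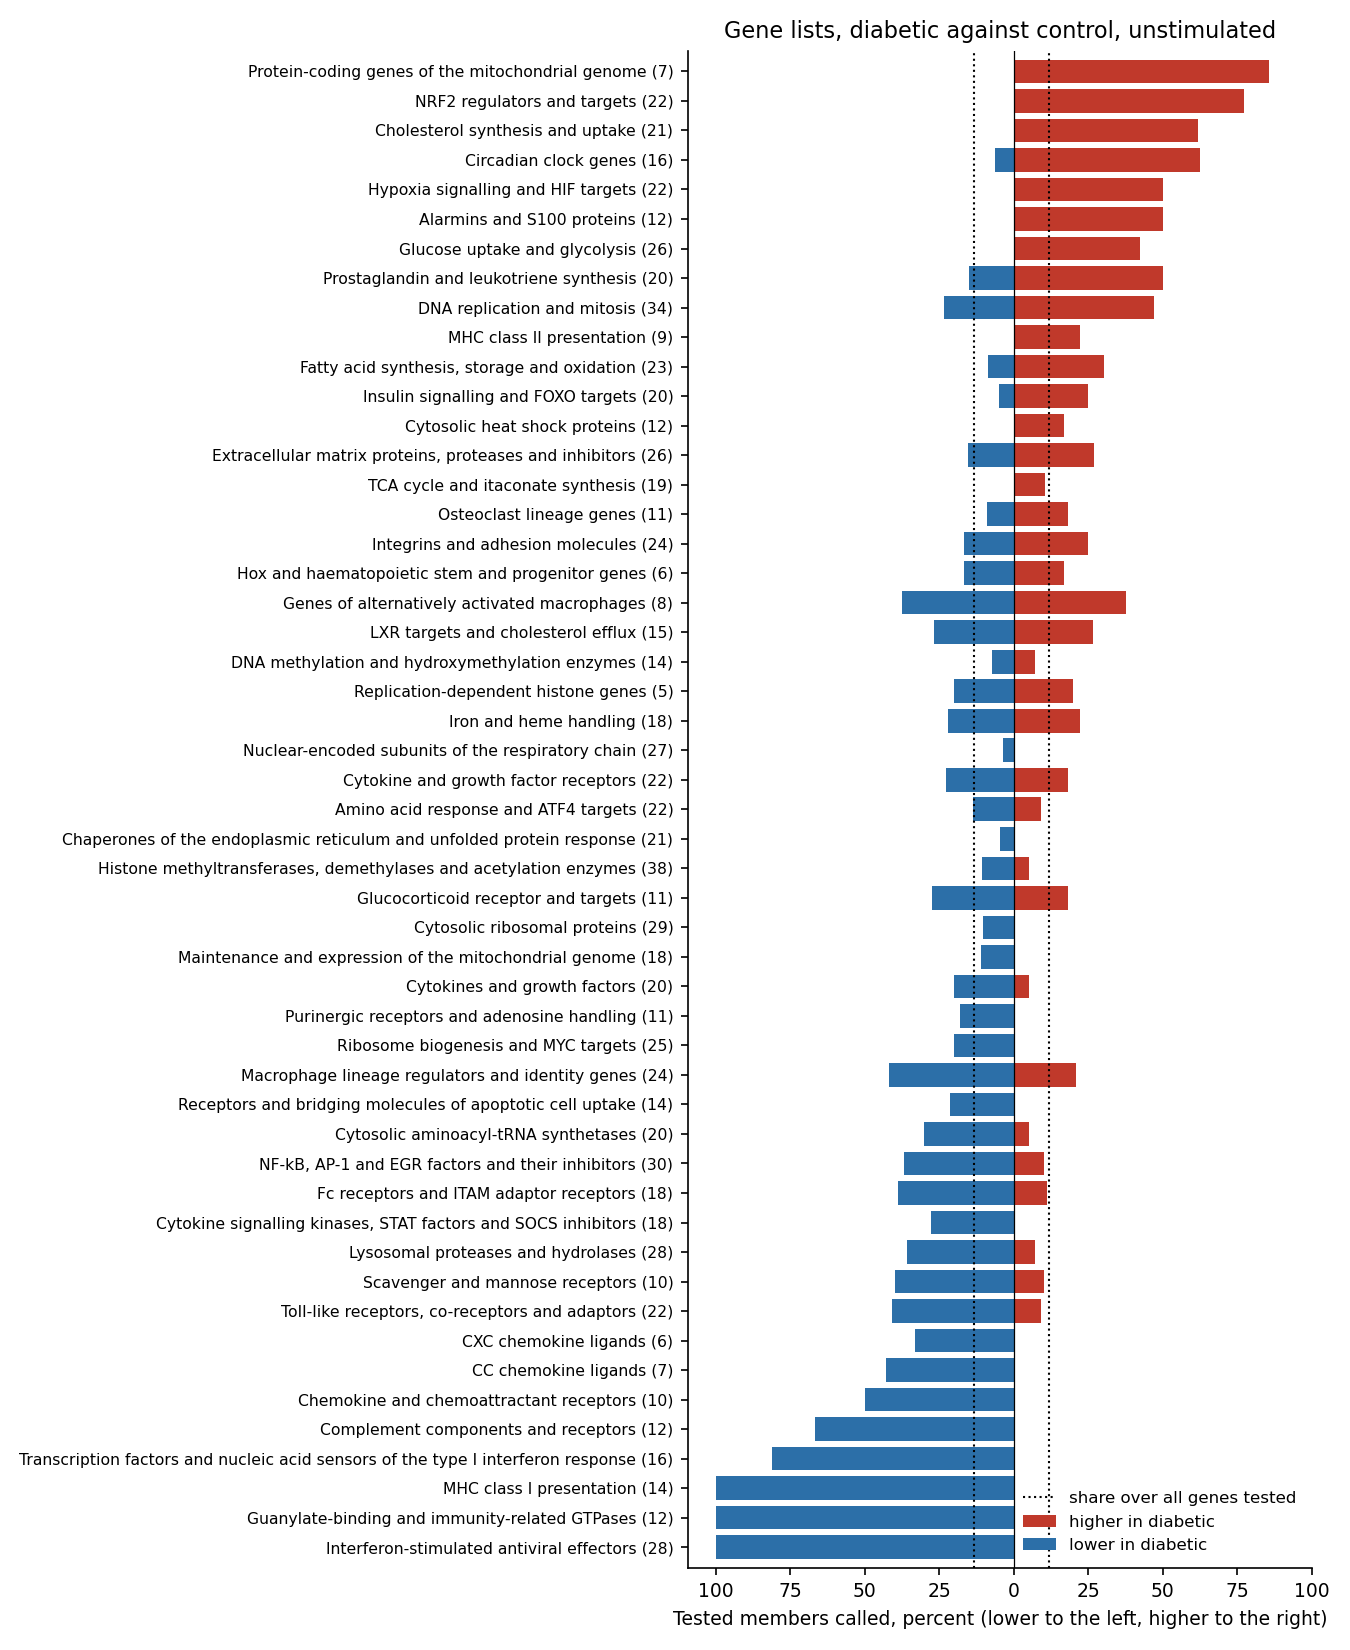
Share of the tested members of each gene list (cell marker lists left out) that were called higher (to the right) or lower (to the left) in diabetic cells (horizontal axis, percent), with the number tested in brackets; the dotted lines mark 11.9% higher and 13.4% lower over all genes. The interferon effectors, GTPases and MHC class I genes reach 100% lower, and NRF2 targets and mitochondrially encoded genes stand highest on the other side.

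Markers of other cells were checked as lists. The summed level of B lineage markers, of which 2 of 14 have a row, lay at 24.3 to 58.3 CPM in diabetic and 7.57 to 20.7 CPM in control libraries. Nearly all of it was Ighm, the heavy chain of immunoglobulin M, at 23.3 to 57.3 CPM with a median of 36.7 in diabetic libraries, against 5.92 to 19.5 CPM with a median of 10.3 in control libraries (1.60 ± 0.29, adjusted p = 0.0023). Its adjusted p within column block 2 was 0.21. Cd79b was the other gene and fell (-0.31, adjusted p = 0.041), and it did not pass without diabetic library 1, 2 or 6 or control library 1, 2, 3 or 6, with differences of -0.32 to -0.22 and adjusted p of 0.058 to 0.088. Neutrophil markers, 4 of 15 with a row, summed to 34.6 to 44.5 CPM in diabetic and 15.9 to 24.3 CPM in control libraries, nearly all of it Mmp8. S100a8 lay at 0.453 to 0.806 CPM in diabetic and 0.0317 to 0.301 CPM in control libraries, without overlap. Cxcr2 averaged 0.404 CPM in diabetic and 0.174 CPM in control libraries. Lcn2 went the other way, with means of 0.398 CPM in diabetic and 0.780 CPM in control libraries. S100a8, Cxcr2 and Lcn2 were below the minimum level for the test. Markers of mast cells, eosinophils and basophils, 3 of 15 with a row, summed to 6.98 to 9.10 CPM in diabetic and 3.01 to 5.98 CPM in control libraries, led by Siglecf. The sums of T and NK cell, dendritic cell, stromal, endothelial, megakaryocyte and adipocyte markers overlapped between the groups, while single markers in them did not. Vwf, which endothelium and megakaryocytes make, lay at 84.5 to 116 CPM with a median of 109 in diabetic libraries, against 47.9 to 71.7 CPM with a median of 64.9 in control libraries (0.72 ± 0.10, adjusted p = 0.00033), with Pecam1 and Cdh5 under 1 CPM in every library. The endothelial sum was 163 to 212 CPM in diabetic and 147 to 163 CPM in control libraries. Klrb1c, an NK cell marker, lay at 0.672 to 1.20 CPM in diabetic and 0.253 to 0.451 CPM in control libraries and was below the minimum level for the test. Of the other markers called, Bst2 and Pparg are described above, Pf4, Cd83 and Cd4 fell (-0.29, -0.24 and -0.43), the groups of all 3 overlapped, and none of the 3 passed within column block 1. No erythroid marker of 12 has a row. The part of other cells in any result was not tested.

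Median GC content of the longest transcript was 47.9% in genes called higher, 51.4% in genes called lower and 49.3% in all tested, and the median span on the genome was 29.4, 22.5 and 23.2 kb. The largest shares of lower calls of an autosome were on chromosomes 11 (17.6%) and 17 (16.9%), and the smallest was on chromosome 10 (9.43%), against 13.4% over all genes. Of the 165 lower calls on chromosome 11, 7 were Schlafen genes.

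The same comparison in stimulated cells, made in other libraries of the same mice, called 5169 of the 11126 genes (46.5%), 2968 higher (26.7%) and 2201 lower (19.8%). That split depended on scaling, with 4669 higher and 1340 lower under scaling by total reads and 2223 higher and 2880 lower under median-of-ratios scaling. Of the 1326 genes higher in unstimulated diabetic cells 618 were also higher in stimulated ones, which is 46.6% of the unstimulated and 20.8% of the stimulated calls, and 116 were lower there. Of the 1487 lower genes 773 were also lower there, which is 52% of the unstimulated and 35.1% of the stimulated calls, and 199 were higher. Of the 28 antiviral effectors 27 were lower in stimulated diabetic cells, with a median of -0.39, and the difference was called less negative there than in unstimulated cells for 26, against 20.1% of all genes called in that direction. Over all genes 32.8% of changes were called, 2238 in that direction and 1416 in the other, and under scaling by total reads they were 3136 and 977, under median-of-ratios scaling 1678 and 1911. Irf7 averaged 2500 ± 129.6 CPM in diabetic and 3494 ± 306 CPM in control stimulated libraries (-0.48 ± 0.055, adjusted p = 3.6e-06), and the change of the difference between states (stimulated minus unstimulated, fitted to the difference of each mouse) was 1.69 ± 0.19, adjusted p = 4.6e-05. For Mx1 the stimulated difference was -0.17 ± 0.063, adjusted p = 0.031, with a change of 1.41 ± 0.18, adjusted p = 0.0001, and for Ccl5 it was -0.19 ± 0.058, adjusted p = 0.014, with a change of 1.45 ± 0.20, adjusted p = 0.00014. Ifit3b had a stimulated difference of -1.53 ± 0.11, adjusted p = 6.1e-07, and its change did not pass (0.20 ± 0.17, adjusted p = 0.39).

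C1qa and Apoe differed in both states, with stimulated differences of -1.12 ± 0.1, adjusted p = 1.6e-06 and -1.30 ± 0.10, adjusted p = 7.2e-07, and changes of 0.0078 ± 0.10, adjusted p = 0.96 and -0.22 ± 0.12, adjusted p = 0.17 that did not pass. Il1b was lower in unstimulated diabetic cells, where its groups overlapped and its call was lost within column block 2. In stimulated cells Il1b was higher, at 2726 ± 317 CPM in diabetic and 1779 ± 398 CPM in control libraries (0.64 ± 0.13, adjusted p = 0.0018). The change for Il1b was 1.11 ± 0.19, adjusted p = 0.00072. Hmox1, which did not pass in unstimulated cells, averaged 1682 ± 97.1 CPM in diabetic and 486 ± 80.6 CPM in control stimulated libraries (1.80 ± 0.092, adjusted p = 2.0e-08; change 1.50 ± 0.16, adjusted p = 3.3e-05). F10 and Acpp had larger differences after stimulation (1.77 ± 0.27, adjusted p = 0.00034, change 0.59 ± 0.18, adjusted p = 0.021, for F10; 1.69 ± 0.27, adjusted p = 0.00045, change 0.58 ± 0.18, adjusted p = 0.021, for Acpp). Galnt9 was at 0.085 CPM or less in every stimulated library.

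**Figure D5:**
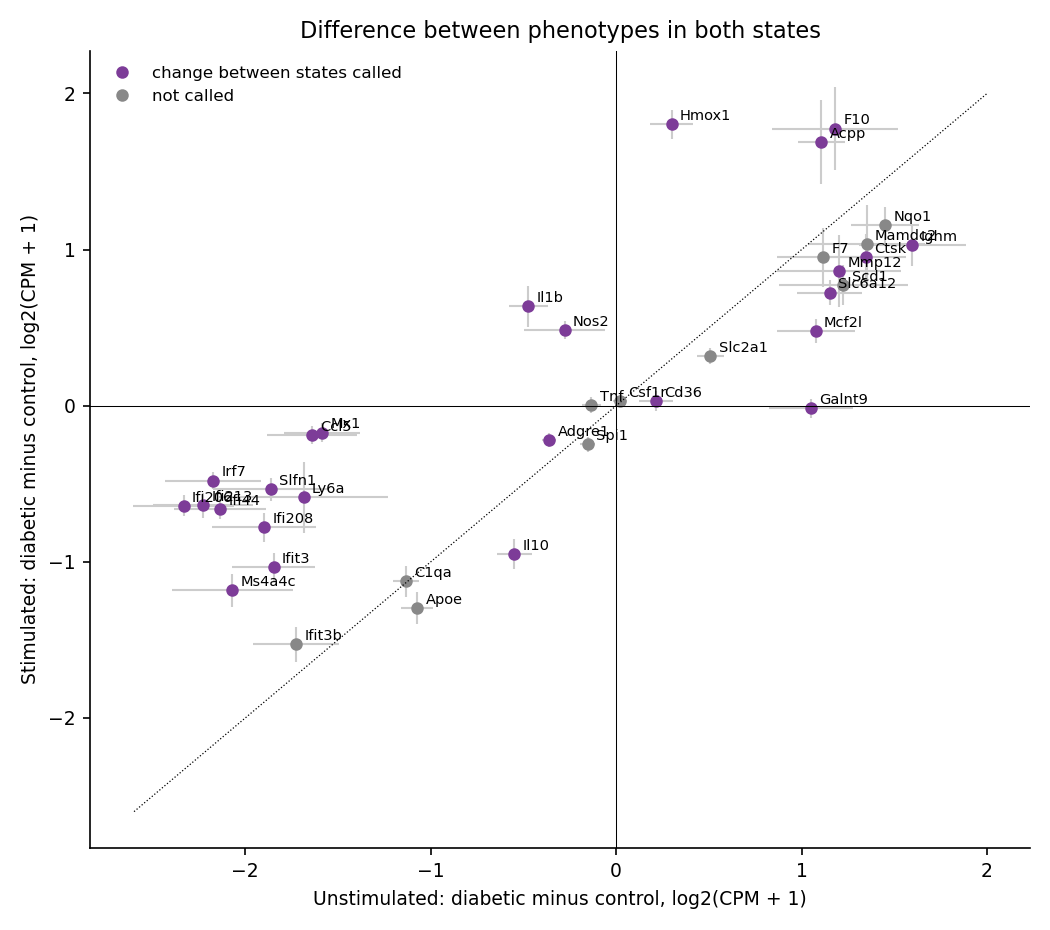
Difference between diabetic and control in stimulated (vertical axis) against unstimulated libraries (horizontal axis), both on the log2 scale of CPM + 1 with SE bars, for the 24 largest differences and the genes looked at by name; colour marks genes whose change between states was called, and the dotted line is equality. The interferon genes lie at the left, above the line, Ifit3b near it, and Hmox1 at the top. The 24 were chosen by their value on the horizontal axis.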

How the data were processed

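RNA of 24 macrophage samples was sequenced from poly(A)-selected, stranded libraries, per the labels' protocols; the labels' molecule field says genomic DNA, against those protocols. Reads were processed with STAR 2.5.3a and edgeR 3.16.5 on GRCm38, per the submitters' processing notes. How reads were assigned to genes was not stated in these notes or in the labels. The authors deposited 1 table of log2 CPM with scaling factors and a small prior for 13568 genes. Linear CPM was recovered by subtracting the common lowest value, and each value came out as a whole number of reads within 0.01. As the unit is log2 values, the count test allowed for in the design was not used. Unstimulated libraries were compared with limma 3.58.1 (trend, robust) in R 4.3.3 on log2(CPM + 1), for 11126 genes with at least 1 CPM in 6 of 12 libraries, with Benjamini-Hochberg adjustment over all of them and a threshold of 0.05. The test was also tried on simulated data with known changes, and the outcome of that trial is not given here. Each mouse gave 1 unstimulated library, and libraries of a group correlated at 0.993 to 0.998. 132 genes were named by rule: the 12 largest rises and falls, up to 2 per list with the smallest p, and a panel of 16; further list and family members, given by their values, were chosen after values were seen. Members and lists were chosen with earlier results of these data known. Alternatives covered pseudocount, filter, scaling, weights, model, blocks and left-out libraries. Promoters came from RefSeq. Figures were drawn with matplotlib 3.10.9, and tables were made with pandas 2.3.3 and numpy 2.4.6, in Python 3.11.15. Some genes are not reported here.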

Additional observations from a re-analysis of the deposited data

Results flagged for a closer look

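In groups of 6 libraries a value was listed when its gap to the next library exceeded 0.625 of the group's range (Dixon's rule); chance alone lists about 1 in 20 groups, and of 264 groups, 2 for each of the 132 named genes, 44 were listed. Most were control library 3. It was the highest control library for Psme1 (123), Irf9 (98.3), Myd88 (97.2), Psmb8 (141), Mx2 (12.6), Tgtp2 (5.13), Bst2 (275), Ifi44 (37.4), Ifi206 (41.5), Gbp9 (74.5), Ifi213 (33.4), Irf7 (740), Ifit3 (103), Mx1 (52.8), Ifit3b (20.8), Ifi208 (21), Ccl5 (172), Ms4a4c (51.2), Slfn1 (19) and Ly6a (131), all in CPM. It was also the highest for C1qc (1733), Nfkbiz (37), Ccr3 (68), Cxcl16 (299), Ctsh (196), Jak3 (43.2) and Cd5l (729) and the lowest for Ak4 (0.855), Mmp8 (14.2), Slc2a1 (47.8), Siglecf (1.71) and Mcf2l (0.76). Among diabetic libraries the listed values were mt-Nd5 in library 3 (1287, highest), Alox5 in library 3 (17.2, highest), Pparg in library 2 (39, lowest), Il1b in library 4 (4.78, highest), Spi1 in library 3 (291, highest), Cd68 in library 3 (1913, highest) and Pnpt1 in library 1 (32.9, highest). Among the other control libraries they were Pgam1 in library 6 (10.9, highest), Npas2 in library 2 (4.07, highest), Polr1c in library 5 (22.4, lowest), Cd68 in library 5 (1792, lowest) and H2afz in library 6 (4.23, lowest). What sets control library 3 apart was not tested.

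The difference between diabetic and control cells changed between the stimulated and the unstimulated state for 25 of the 36 genes checked, by limma on the difference of each mouse with adjusted p over all genes. Over all genes 32.8% of changes were called. Apart from the panel, the 36 were chosen for a large unstimulated difference, which itself enters the change. That choice favours changes of the opposite sign, so the count is no measure of how often differences change. The change (stimulated difference minus unstimulated difference, log2 scale) was positive for Adgre1 (0.141), Acpp (0.58), Ifi44 (1.47), Ifi206 (1.69), Ifi213 (1.59), Irf7 (1.69), Ifit3 (0.813), Mx1 (1.41), Ifi208 (1.12), Ccl5 (1.45), Ms4a4c (0.886), Slfn1 (1.33), Il1b (1.11), Ly6a (1.1), F10 (0.593), Hmox1 (1.5) and Nos2 (0.764). It was negative for Il10 (-0.4), Slc6a12 (-0.427), Ctsk (-0.393), Ighm (-0.567), Mcf2l (-0.599), Galnt9 (-1.07), Mmp12 (-0.34) and Cd36 (-0.185). Galnt9 was hardly measurable in stimulated libraries.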

How the results depend on the processing

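Of the 132 named genes 127 were called, which follows from the rule, as all but the panel genes were taken from called genes. Of the 127, 47 were called under every one of the 30 alternatives, and 8 lost the call when a single library was left out. These genes were picked for a large difference or a small p, so their counts do not stand for all calls. Leaving out 1 library at a time gave 1116 to 1339 genes higher and 1278 to 1563 lower, in stimulated cells 2626 to 3017 and 2021 to 2227, and for the change between states 1825 to 2253 in the positive and 1174 to 1456 in the negative direction. Within column block 1 alone 1139 genes were higher and 1310 lower, and within column block 2 alone 322 and 287; block 2 without control library 3, an alternative chosen after seeing the data, gave 231 and 313. Both have at most 6 libraries, and 65 and 58 named genes lost the call. Scaling by total reads gave 1727 higher and 1124 lower, and in stimulated cells 4669 and 1340. The direction reversed for 2 genes that were called neither in the main comparison nor in these settings: Nos2 (0.0636, adjusted p = 0.79, limma) within block 2 without control library 3, and Csf1r (-0.00731, adjusted p = 0.93) within block 1. No pairing of diabetic with control mice by replicate number was evident, though 6 pairs are too few to exclude one. Deviations of same-numbered libraries correlated at -0.22 to 0.25, over 0.1 in 2 of 6 pairs, and 3 of 12 libraries correlated best with their own number. With the replicate number as a block 1234 genes were higher and 1373 lower, and 7 named genes lost the call. In stimulated cells that block gave 2890 and 2193, and for the change 2015 and 1280. Genes near 3 reads per library (0.0835 to 0.139 CPM) were not measurable at this depth, and 1 CPM was required for testing.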
